A study of Homo sapiens with 6 samples.

Results

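The mitochondrial ribosomal protein genes were followed across 6 plating densities of MCF10A cells, a line of breast epithelium that does not form tumours. Members were all genes whose symbol is MRPL or MRPS followed by a number, without pseudogenes or antisense genes, and 75 of the 19775 genes measured met this rule, 48 with an MRPL and 27 with an MRPS symbol. RefSeq lists 77 protein-coding genes with such symbols, and MRPL53 and MRPS24 were not analysed here. The gene long called MRPS36 is listed as KGD4 in the annotation and falls outside the rule.

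Dishes of 35 mm received 50K, 100K, 200K, 400K, 600K or 800K cells (1K being 1000 cells), and total RNA was taken after 24 h. Every dish held the same line in the same medium, which held horse serum at 5%, insulin at 10 μg/ml, gentamicin at 100 μg/ml, cholera toxin at 100 ng/ml, hydrocortisone at 0.5 μg/ml and EGF at 20 ng/ml, so by the labels the groups differed in the number of cells plated alone. There was 1 array (Affymetrix HG-U133 Plus 2) for each density and no replicate, so p-values rest on the scatter of 6 arrays about a line. A deposited value is the ratio of a probe set, a group of probes for 1 transcript region, to the same probe set on the 50K array. It shows change and no level, so the labelled cell type could not be checked against the level of its markers.

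Mitochondria keep their own ribosome, which translates the few proteins encoded in mitochondrial DNA, all of them subunits of the respiratory chain and the ATP synthase. Its RNA is made inside the organelle, while every one of its proteins is encoded in the nucleus, made in the cytosol and imported. Some of these proteins have counterparts in bacterial ribosomes and others occur only in mitochondria. They sit in a large subunit, which forms peptide bonds, and a small subunit, which reads the messenger RNA.

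Expression of the mitochondrial ribosomal protein genes drifted downward above 200K cells. The trend was fitted with limma over all genes and 6 arrays, a slope being the change in log2 ratio for each doubling of the cells plated, and a gene was called at a Benjamini-Hochberg adjusted p under 0.05. Of the 75 members, 18 (24.0%) fell, 3 (4.0%) rose and 54 did not pass. Among all 19775 genes, 12.4% fell and 8.93% rose. Slopes were below 0 for 55 members (73.3%), against 41.4% of all genes, and the median slope was −0.048 log2 units per doubling for the members and 0.0045 for all genes.

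The changes were small. No member changed by 2-fold or more between 50K and 800K, while 2.69% of all genes were at least 2-fold lower and 2.25% at least 2-fold higher. At 800K 19 members (25.3%) were at least 1.25-fold lower than at 50K, against 15.8% of all genes, and 1 member, MRPL20, was at least 1.25-fold higher, against 13.1%. In 38 members (50.7%) the ratios at 400K, 600K and 800K all lay below those at 50K, 100K and 200K, against 17.9% of all genes. The reverse order held for MRPL24 and MRPL13 alone, 2.67% of members against 13.8% of all genes.

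The median of the family was higher at 100K than at 50K and then lower at each denser dish. In no single member did a bend away from a line pass the threshold. At 100K 60 of 75 members were above their 50K value, with a median log2 ratio of 0.086 against 0.046 for all genes. The quartiles there were 0.027 and 0.18 for the members and −0.057 and 0.11 for all genes. Every ratio shares the same array at 50K, so the members are not separate observations of a rise. Over the 4 denser dishes, in order, the median was 0.024, −0.070, −0.11 and −0.15, the last being a ratio of 0.900, while that of all genes lay between 0.017 and 0.050. At 800K 53 members were below their 50K value, and the quartiles of the 75 log2 ratios were −0.33 and 0.022, against −0.14 and 0.14 for all genes. The array at 100K was thus the high point of the family and that at 800K its low point.

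**Figure D1:**
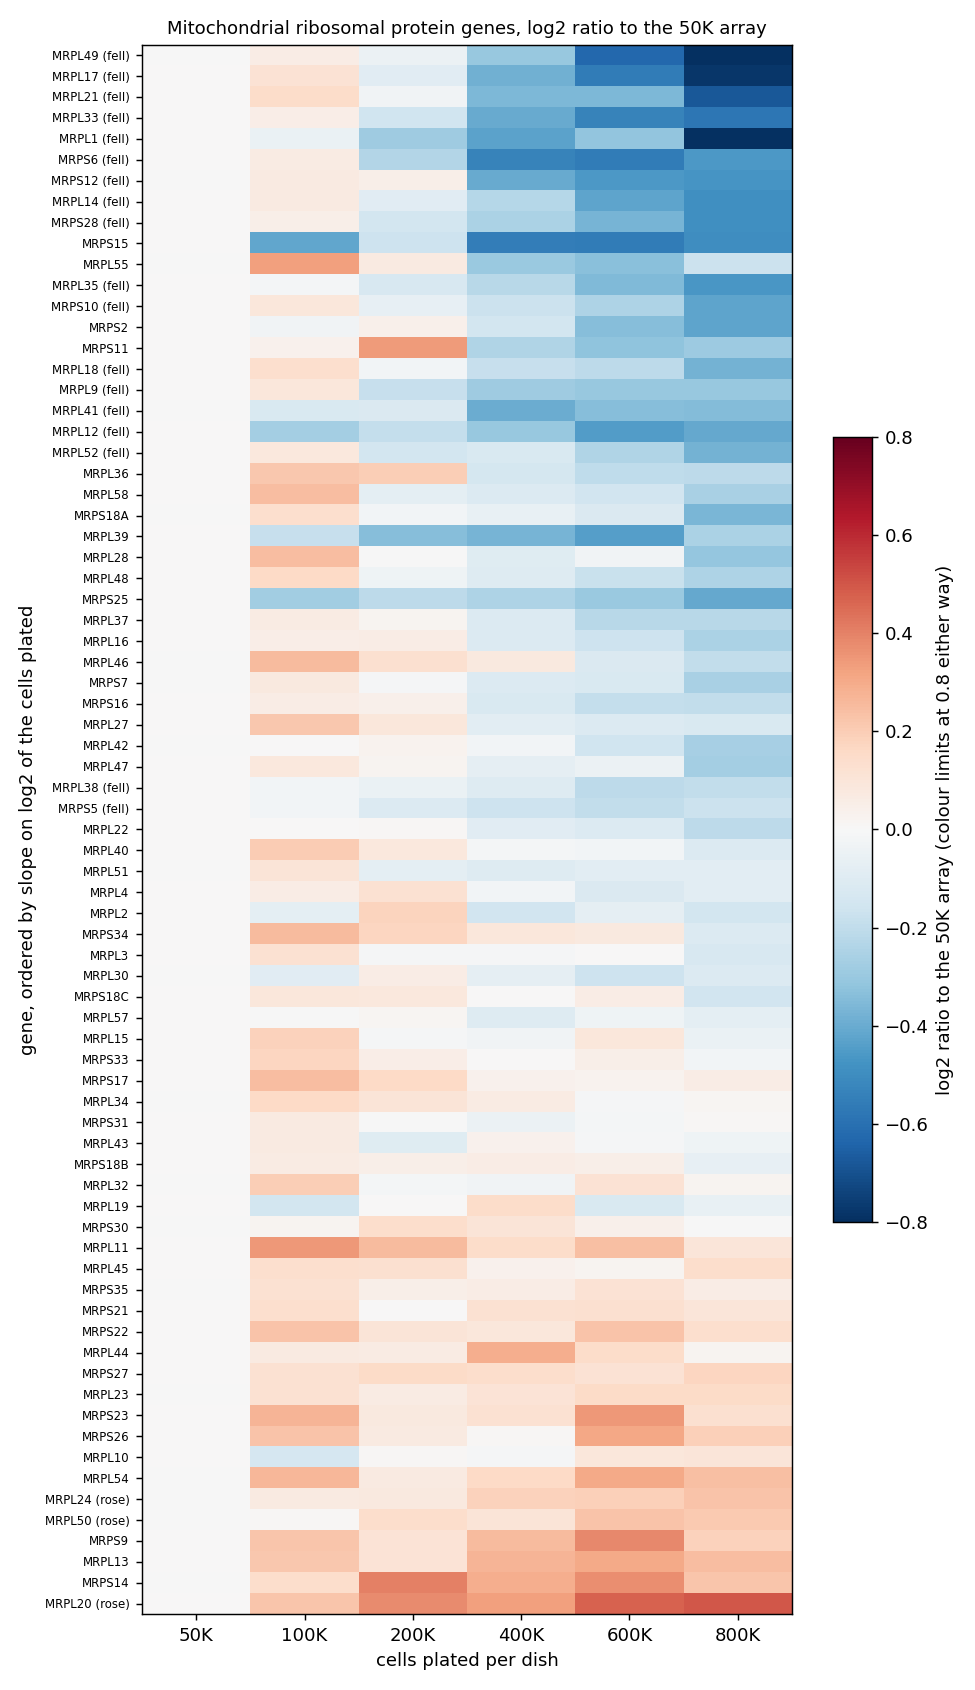
Log2 ratio to the 50K array for each of the 75 genes (rows, from the most negative to the most positive slope) at the 6 plating densities (columns, 1 array each), with blue below and red above the 50K array. The 18 genes that fell lie in the upper part and the 3 that rose near the bottom, and MRPL49, MRPL17 and MRPL1 are the darkest at 800K.

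The steepest falls were those of MRPL49, a protein of the large subunit found only in mitochondria, and MRPL17, the counterpart of a bacterial large-subunit protein. From 100K to 800K the ratio of MRPL49 was 1.04, 0.967, 0.811, 0.646 and 0.568, and the last is 1.76-fold below 50K. That of MRPL17 was 1.08, 0.94, 0.764, 0.68 and 0.583 at the same densities. In both genes the 3 sparse arrays lay close together and the 3 crowded ones below them without overlap, in falling order. The slopes were −0.21 ± 0.043 (SE, 6 arrays; adjusted p = 0.0204) and −0.21 ± 0.038 (adjusted p = 0.0142).

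MRPL21, MRPL33 and MRPL1, further large-subunit proteins with bacterial counterparts, fell as well. MRPL21 had ratios of 1.11, 0.98, 0.781, 0.78 and 0.626 from 100K to 800K (slope −0.17 ± 0.040, adjusted p = 0.0284). MRPL33 went through 1.04, 0.894, 0.757, 0.689 and 0.669, a smooth course with a slope of −0.17 ± 0.023 (adjusted p = 0.00657). MRPL1, which forms the mobile stalk near the site where spent transfer RNA leaves, had 0.963, 0.822, 0.742, 0.804 and 0.576 (slope −0.16 ± 0.037, adjusted p = 0.0281). Its value at 600K lay above that at 400K, and the last step, a log2 change of −0.48, was among the 3 largest downward steps of any member.

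MRPL14, MRPL35, MRPL18 and MRPL9 of the large subunit also have bacterial counterparts. The ratios of MRPL14 were 1.05, 0.939, 0.854, 0.747 and 0.711, and those of MRPL35 0.988, 0.916, 0.856, 0.782 and 0.725. MRPL18, a protein of the central protuberance, had 1.1, 0.983, 0.879, 0.866 and 0.769, and MRPL9 1.06, 0.881, 0.822, 0.811 and 0.811. All 4 were lower at 400K than at 100K, and MRPL9 changed little beyond that. The slopes of MRPL14, MRPL35, MRPL18 and MRPL9 were −0.14 ± 0.025, −0.11 ± 0.018, −0.10 ± 0.026 and −0.099 ± 0.022, with adjusted p of 0.0147, 0.00909, 0.0411 and 0.0245.

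MRPL12, the stalk protein that recruits translation factors and is also known to bind the mitochondrial RNA polymerase, was already low at 100K. Its ratios were 0.828, 0.878, 0.811, 0.734 and 0.754 (slope −0.093 ± 0.022, adjusted p = 0.0306). This early drop came from 1 of its 2 probe sets, which read 0.668 at 100K while the other read 1.03. Among large-subunit proteins without a bacterial counterpart, MRPL41, MRPL52 and MRPL38 fell with slopes of −0.096 ± 0.020, −0.093 ± 0.023 and −0.054 ± 0.013 (adjusted p of 0.0217, 0.0388 and 0.0361). At 800K their ratios were 0.788, 0.771 and 0.871. MRPL52 was the only 1 of the 18 genes that fell whose sparse and crowded arrays overlapped, at 0.903 for 200K and 0.921 for 400K.

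Of the small subunit, MRPS6, MRPS12, MRPS28, MRPS10 and MRPS5 fell, all with bacterial counterparts. MRPS6 had ratios of 1.05, 0.849, 0.691, 0.68 and 0.726, with its low point at 600K (slope −0.16 ± 0.031, adjusted p = 0.016). MRPS12, a protein of the decoding centre, stayed at 1.05 and 1.03 up to 200K and then read 0.755, 0.727 and 0.722 (slope −0.15 ± 0.035, adjusted p = 0.0303). Nearly the whole difference lay in the step from 200K to 400K, a log2 change of −0.45. MRPS28 went through 1.03, 0.901, 0.839, 0.772 and 0.712 (slope −0.13 ± 0.021, adjusted p = 0.00961), and MRPS10, of the head of the small subunit, through 1.06, 0.955, 0.887, 0.843 and 0.748 (slope −0.11 ± 0.024, adjusted p = 0.0279). MRPS5, which lies where messenger RNA enters, moved least, to 0.886 at 800K (slope −0.052 ± 0.012, adjusted p = 0.031).

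The 3 members that rose, MRPL20, MRPL50 and MRPL24, all belong to the large subunit. MRPL20, the counterpart of a bacterial large-subunit protein, had ratios of 1.17, 1.3, 1.25, 1.38 and 1.41 (slope 0.11 ± 0.020, adjusted p = 0.014). The values of MRPL24, a protein at the exit of the peptide tunnel, were 1.05, 1.06, 1.13, 1.14 and 1.17 (slope 0.055 ± 0.012, adjusted p = 0.0235). MRPL50, found only in mitochondria, had 1, 1.1, 1.07, 1.17 and 1.16 (slope 0.058 ± 0.015, adjusted p = 0.0415). Only in MRPL24 among these 3 did all crowded arrays exceed all sparse ones.

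**Figure D2:**
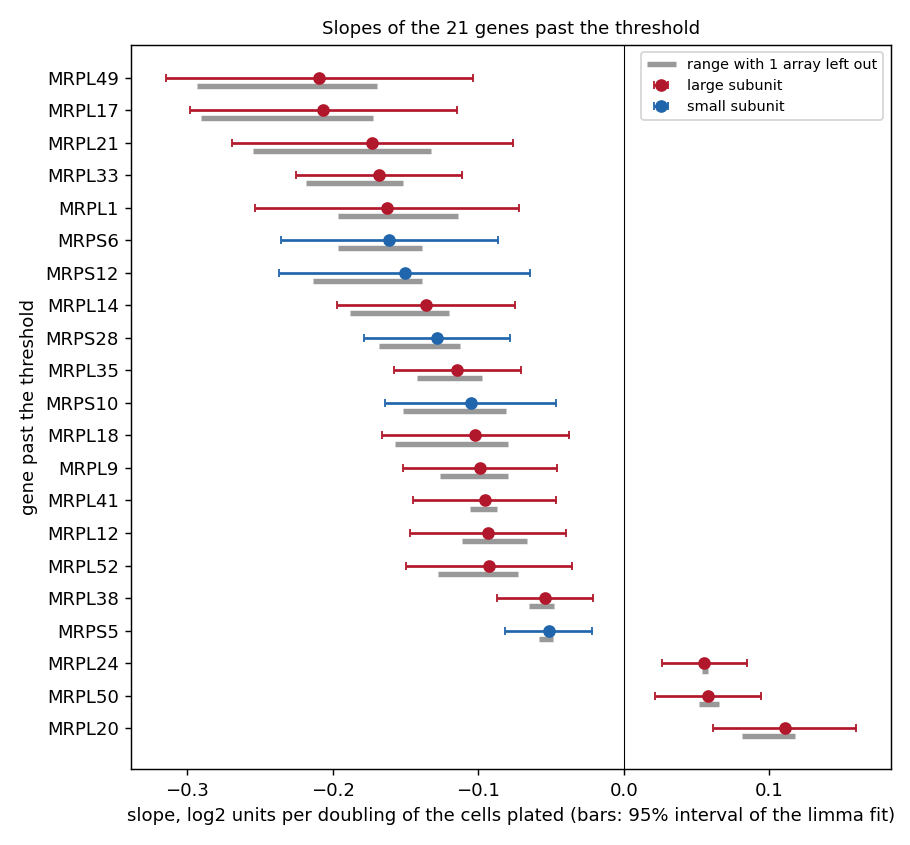
Slope of the log2 ratio per doubling of the cells plated (horizontal axis) for the 21 genes past the threshold, with the 95% interval of the limma fit as thin bars, red for large-subunit and blue for small-subunit proteins, and in grey the range of the slope when each array in turn was left out. No grey range crosses 0, and the slopes run from −0.21 for MRPL49 to 0.11 for MRPL20.

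With each array left out in turn, the direction held for all 21 genes in all 6 fits, and the call held in all 6 for MRPL33, MRPS28 and MRPL35. Without 50K 23 members fell, or 30.7%, against 8.55% of all genes, and 13 of the 18 calls were kept. Without 100K 10 fell (13.3%, against 8.42%), without 200K 16 (21.3%, against 11.5%) and without 400K 10 (13.3%, against 10.6%). Without 600K 4 fell (5.33%, against 7.09%) and without 800K 5 (6.67%, against 6.89%), so the excess over the background was absent when either of the densest dishes was left out. The rising count was 0 without 50K, 600K or 800K, against 6.56%, 5.28% and 5.19% of all genes, with 4, 3 and 6 members rising at an unadjusted limma p under 0.05. It was 2 (2.67%) without each other array, against 6.51% without 100K, 8.23% without 200K and 8.07% without 400K.

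Gene by gene, the call of MRPS6 was lost without 600K (adjusted p = 0.0576). MRPL17 and MRPL14 lost it without either of the 2 densest dishes, with adjusted p up to 0.0539 and 0.0648. MRPL49 and MRPS10 lost it without either of those or 100K (up to 0.0759 and 0.1), and MRPL9 without any of the 3 densest (up to 0.0773). In MRPL21 and MRPS12 only the fits without 50K and without 200K kept it (otherwise up to 0.0982 and 0.102), and in MRPL1 only those without 200K and without 600K (up to 0.0944). MRPL41 kept it without 200K and without 400K (otherwise up to 0.115), MRPL12 without 100K and without 200K (up to 0.218), and MRPL52 without 50K and without 400K (up to 0.149). MRPL18 was called without 50K alone (otherwise up to 0.156), and MRPL38 and MRPS5 were called in 0 of the 6 fits (up to 0.136 and 0.107). Of the rising genes, MRPL20 kept its call without 100K, without 200K and without 400K (otherwise up to 0.094), MRPL24 without 100K and without 200K (up to 0.102) and MRPL50 without 400K (up to 0.133).

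Probe sets of 1 gene did not always move together. Of the 75 members 38 were measured by 1 probe set and 37 by several, and in 17 of those 37 the slopes had both signs. The rise of MRPL20 came from 1 of its 3 probe sets, which reached a ratio of 3.63 at 800K (slope 0.42 ± 0.042, adjusted p = 0.00498 among probe sets). The other probe sets of MRPL20 read 1.01 and 0.765 at 800K, and the latter fell (slope −0.085 ± 0.020, adjusted p = 0.0404). With the median of the probe sets in place of the mean, the slope of MRPL20 was −0.0020 (adjusted p = 0.951). In MRPL50, likewise with 3 probe sets, the slope of each probe set was above 0, at 0.0071, 0.061 and 0.11, and none of them passed alone.

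Among the genes that fell, 9 had 1 probe set and 9 had several, and in 7 of the latter all slopes were below 0. The exceptions were MRPS12 and MRPS5, each with 1 probe set of 4 near 0, at 0.0017 and 0.0066. In MRPS12 the probe sets read 0.415, 0.71, 0.909 and 1.01 at 800K. MRPL41 is measured by 5 probe sets, of which 1 reached 0.45 at 800K (slope −0.28 ± 0.029, adjusted p = 0.00536) and the others between 0.853 and 0.972. Tested 1 by 1, 22 of the 140 probe sets of the family fell (15.7%, against 10.1% of all probe sets) and 2 rose (1.43%, against 7.14%). Without the probe sets that can match more than 1 transcript (_x_at and _s_at), 6 of the 44 members that could be tested fell (13.6%, against 8.81% of all genes under that setting) and 2 rose (4.55%, against 6.77%). The share that fell was closer to the background than the 24.0% with all probe sets. The 2 shares cover different genes, since 31 members, the falling MRPL17 and MRPL14 among them, have only such probe sets and were not tested there. MRPL35, MRPL18, MRPL12, MRPS5 and MRPL50 were still measured there and lost their calls (adjusted p of 0.102, 0.0545, 0.105, 0.414 and 0.101). The only probe set of MRPL18 is of neither kind, so its slope stayed at −0.10. Its adjusted p alone moved, as the fit then ran over 17098 genes. With the median of probe sets MRPL41, MRPS5 and MRPL50 lost theirs (0.195, 0.0978 and 0.101), and with arrays centred on their medians MRPL12 did (0.0504).

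MRPS23, a small-subunit protein found only in mitochondria, and MRPL19, a large-subunit protein with a bacterial counterpart, were not called, and their probe sets went opposite ways. MRPS23 had probe sets at 0.753 and 1.59 at 800K, with slopes of −0.10 ± 0.028 and 0.17 ± 0.045. Those of MRPL19 stood at 0.714, 0.915 and 1.35, with slopes of −0.11 ± 0.024, −0.0053 ± 0.041 and 0.13 ± 0.056. The gene slopes, 0.034 for MRPS23 and 0.0023 for MRPL19, therefore average unlike readings.

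**Figure D3:**
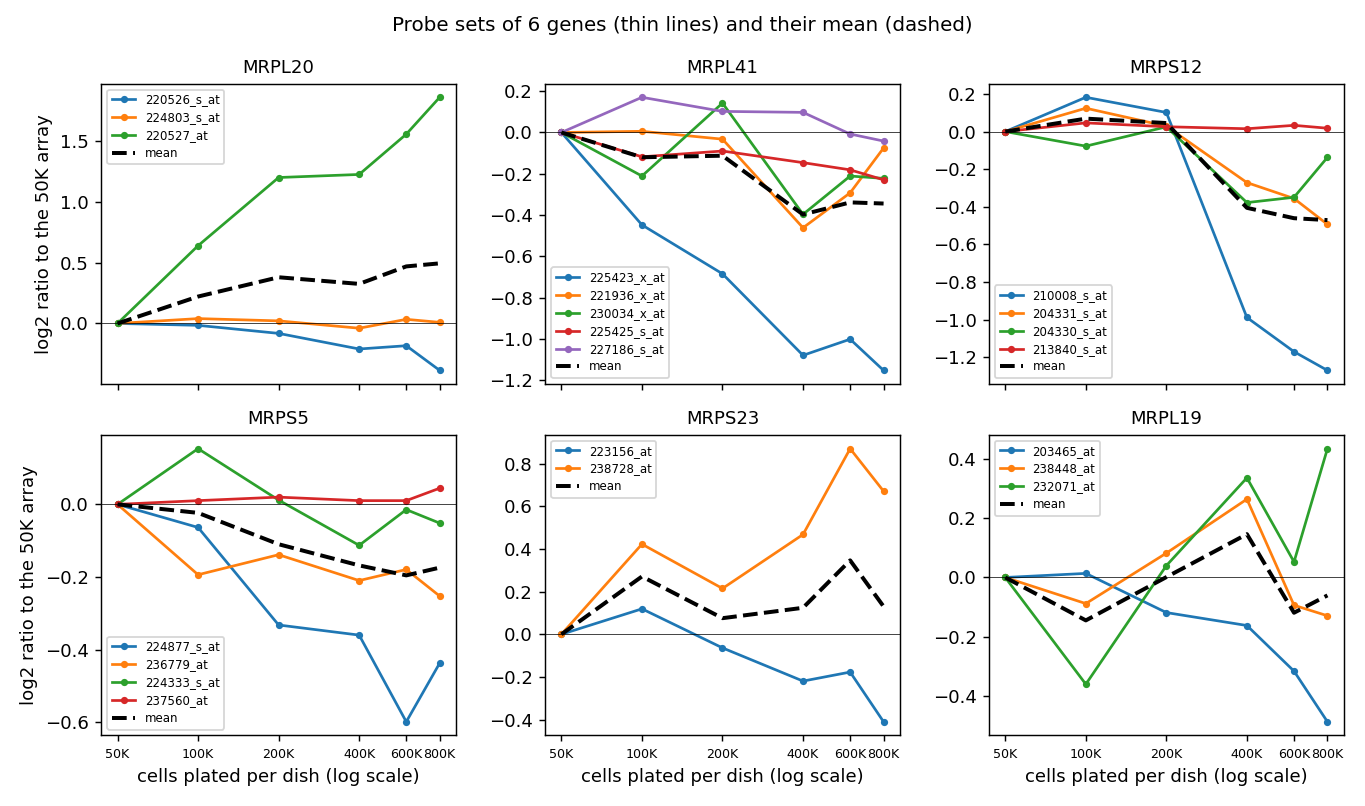
Log2 ratio to the 50K array (vertical axis, own scale in each panel) against cells plated (log scale) for the single probe sets of MRPL20, MRPL41, MRPS12, MRPS5, MRPS23 and MRPL19, with their mean dashed. In MRPL20, MRPL41 and MRPS12 a single probe set moves far more than the others, and in MRPS23 the pair diverges.

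The members were also described by place in the ribosome. Of the 50 that sit in the large subunit 13 fell (26.0%, against 12.4% of all genes) and 3 rose (6.0%, against 8.93%). Their median slope was −0.056. Of the 25 in the small subunit 5 fell (20.0%, against 12.4%) and 0 rose (against 8.93%), with 0 also at an unadjusted limma p under 0.05. Their median slope was −0.026. MRPS18A and MRPS30 were counted with the large subunit, where their products are found in spite of their symbols. MRPS18A read 1.1, 0.986, 0.96, 0.921 and 0.776 (adjusted p = 0.113), and MRPS30 read 1.02, 1.1, 1.07, 1.03 and 0.999 (adjusted p = 0.912). Of 45 members with a bacterial counterpart 14 fell (31.1%, against 12.4% of all genes) and 2 rose (4.44%, against 8.93%). Their median slope was −0.059. Of 30 found only in mitochondria 4 fell (13.3%, near the 12.4% of all genes) and 1 rose (3.33%, against 8.93% of all genes; median slope −0.027). The differences between these classes were not tested.

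No member passed for curvature, the quadratic term of the same limma fit, and 0.0% of all genes did. At an unadjusted p under 0.05, 15 members (20.0%) had a quadratic term below 0, a course that bends downward, against 6.8% of all genes, and 1 (1.33%), MRPL39, had a term above 0, against 5.83%. Of the 15, 10 were highest at 100K, 4 at 200K and 1, MRPL35, at 50K. After MRPL49 and MRPL17, the smallest p were those of MRPL46 and MRPS34, proteins found only in mitochondria (unadjusted p = 0.00776 and 0.0148, adjusted p = 0.215 and 0.267). MRPL46 had ratios of 1.19, 1.09, 1.06, 0.922 and 0.871, and MRPS34 had 1.19, 1.13, 1.06, 1.05 and 0.927. In both the highest array was 100K and each later value was lower than the one before. The largest single steps upward were those from 50K to 100K in MRPL11 and MRPL55, log2 changes of 0.35 and 0.33, and from 100K to 200K in MRPS11, 0.31. MRPS11 then had the largest downward step of any member, −0.58 from 200K to 400K, and neither MRPS11 nor MRPL11 nor MRPL55 was called for its slope (adjusted p of 0.258, 0.935 and 0.153). MRPS11 passed without 200K (slope −0.092, adjusted p = 0.0269) and MRPL46 without 50K (slope −0.15, adjusted p = 0.0236).

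Promoter entries of the family were searched for short motifs, and none of these was present in most members. RefSeq promoter entries (GRCh38.p14, 250 bases before to 50 after a start site) were found for 67 of the 75 genes and searched on both strands for AAGATGGC, the core of the site of the factor YY1, for CCGGAAG, the core bound by ETS factors such as GABPA, for the NRF1 core (GCGCA, any base, then GCGC), and for the E-box CACGTG, bound by MYC. AAGATGGC was present in 20 of the 67 genes (29.9%), against 4.66% of 15842 protein-coding genes, 8.51% of the cytosolic ribosomal protein genes and 16.9% of those of the respiratory chain and ATP synthase. CCGGAAG was present in 29 (43.3%, against 16.5% of all, 36.2% and 29.2%). The NRF1 core and CACGTG were each present in 9 (13.4%), against 9.66% and 10.9% of all. By direction of change, AAGATGGC was in 5 of 15 genes that fell, 2 of 3 that rose and 13 of 49 that were not called, and CCGGAAG in 6, 1 and 22 of them. The NRF1 core and CACGTG were each in 2, 0 and 7 of them. A match is a run of letters and not a measured binding site.

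In 15 of the 20 genes AAGATGGC lay on the gene's own strand at or after the start site. The stretches below show it, in capitals with 8 bases on either side, in the genes that fell or rose and hold it on their own strand, so that the shared core and its unlike flanks can be compared. In 5 of the 6 it begins 6 to 23 bases after the start site, and in MRPL52, which holds it a second time 98 bases before the start site, the stretch shown has it 64 bases before.
MRPL49 (fell, chr11:65122336-65122359, + strand): agcaggtaAAGATGGCagctacca
MRPS10 (fell, chr6:42217837-42217860, − strand): ggaccggcAAGATGGCggcgcgga
MRPL52 (fell, chr14:22829815-22829838, + strand): ccagattcAAGATGGCgacttcct
MRPL38 (fell, chr17:75904863-75904886, − strand): ccggagggAAGATGGCggcgccct
MRPL50 (rose, chr9:101398580-101398603, − strand): tctcatcgAAGATGGCggcgcgat
MRPL20 (rose, chr1:1407263-1407286, − strand): acccgggcAAGATGGCagcggcgc

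The 150 bases before the start site are shown for MRPL17, 1 of the steepest falling genes, and MRPL20, the steepest rising one by the mean of its probe sets. They were picked because they carry different motifs and do not stand for falling and rising genes. CCGGAAG was also in 6 of 15 genes that fell, and in MRPL49 this stretch held none of the motifs searched. A link of motif to direction was not tested. Capitals mark the palindromic NRF1 core in MRPL17, which begins 81 bases before the start site, and 2 ETS cores in MRPL20, which begin 44 and 21 bases before it.
MRPL17 (chr11:6683341-6683490, − strand): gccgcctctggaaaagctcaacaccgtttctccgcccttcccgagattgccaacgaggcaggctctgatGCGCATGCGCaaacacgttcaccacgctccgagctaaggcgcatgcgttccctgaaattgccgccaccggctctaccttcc
MRPL20 (chr1:1407294-1407443, − strand): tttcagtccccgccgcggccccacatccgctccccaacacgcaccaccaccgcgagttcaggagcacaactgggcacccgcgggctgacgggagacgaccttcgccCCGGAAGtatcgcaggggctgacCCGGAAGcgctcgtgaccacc

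**Figure D4:**
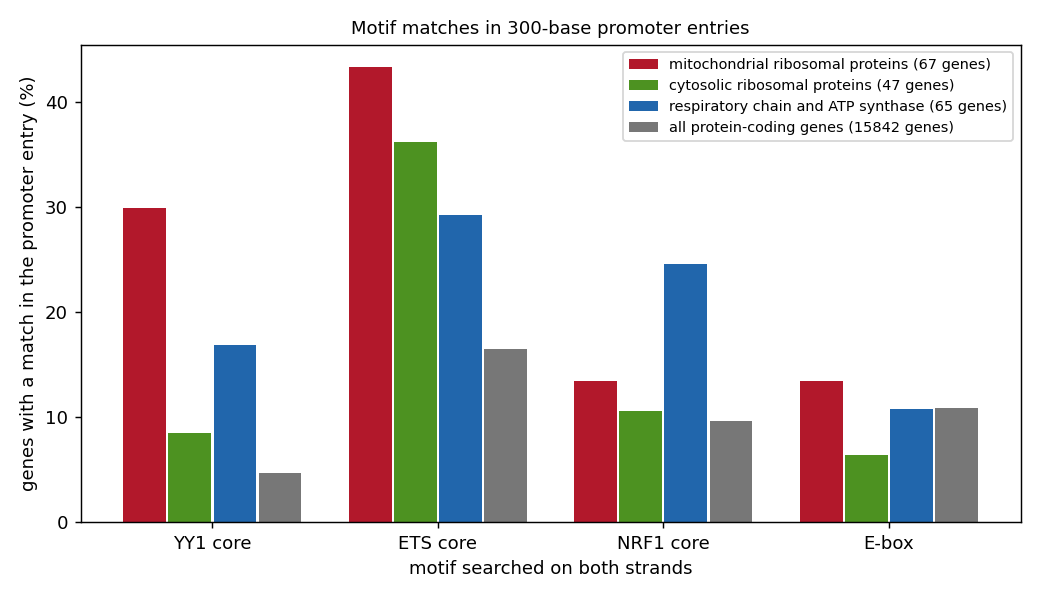
Share of genes (vertical axis, %) with at least 1 match to each of 4 motifs in their promoter entry, for the mitochondrial ribosomal proteins (red), the cytosolic ribosomal proteins (green), the respiratory chain and ATP synthase (blue) and all protein-coding genes (grey). The YY1 core is at 29.9% in the mitochondrial ribosomal proteins and 4.66% in all genes, and the NRF1 core is most frequent in the respiratory chain.

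The factors that bind such motifs were themselves measured. NRF1 fell, with ratios of 0.935, 0.812, 0.845, 0.657 and 0.648 (slope −0.15 ± 0.027, adjusted p = 0.0133, with the call lost without the 50K array or without the 800K array, up to 0.0592). GABPB1, the partner subunit of GABPA, fell to 0.437 at 800K (slope −0.29 ± 0.032, adjusted p = 0.00349), while GABPA, YY1 and MYC were not called (slopes of −0.011, −0.032 and 0.057). Of the 11 regulators of mitochondrial gene expression measured, 3 fell (27.3%, against 12.4% of all genes) and 2 rose (18.2%, against 8.93%). The third to fall was the coactivator PPRC1 (slope −0.12, with adjusted p up to 0.118 in the 4 fits that lost its call, those without 100K and without any of the 3 densest dishes). ESRRA, a nuclear receptor of the same pathway, rose to 1.37 at 800K (slope 0.11 ± 0.021, adjusted p = 0.0172), and its call was lost without 100K and without either of the densest dishes (up to 0.0672).

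The factors that build the mitochondrial ribosome and mature its RNA held 9 of 29 measured genes that fell and 2 that rose (31.0% and 6.9%, against 12.4% and 8.93% of all genes; median slope −0.053). MRM1 and MRM2, which methylate the large ribosomal RNA, read 0.469 and 0.568 at 800K (slopes of −0.28 ± 0.062 and −0.21 ± 0.037). TRMT61B, an RNA methyltransferase, read 0.582 (slope −0.25 ± 0.041), and the assembly factor MPV17L2 0.605 (slope −0.22 ± 0.057). The calls of MRM1, MRM2 and MPV17L2 were lost in 3, 2 and 5 of the 6 fits with an array left out, in each case including the fit without 800K (up to 0.0985, 0.0518 and 0.18).

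Of 24 genes of mitochondrial protein import 8 fell (33.3%, against 12.4% of all genes) and 1 rose (4.17%, against 8.93%). The steepest were the chaperone cofactor GRPEL1 (0.607 at 800K, slope −0.20 ± 0.029) and the outer membrane pore TOMM40 (0.603, slope −0.20 ± 0.042). The call of TOMM40 was lost without 100K, 600K or 800K (adjusted p up to 0.0935). Of 12 genes of mitochondrial DNA upkeep and transcription 5 fell (41.7%, against 12.4% of all genes) and 0 rose (against 8.93%, with 1 at an unadjusted limma p under 0.05). The 5 included MTERF2, a factor that binds mitochondrial DNA (0.451 at 800K, slope −0.25 ± 0.033), and the helicase TWNK (0.584, slope −0.20 ± 0.037). The call of TWNK was lost without the same arrays as that of TOMM40 (adjusted p up to 0.0638). TFAM, which packages mitochondrial DNA, read 0.676 at 800K and was not called (adjusted p = 0.0876).

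Of 17 translation factors 2 fell (11.8%, near the 12.4% of all genes) and 3 rose (17.6%, against 8.93%). GUF1 read 0.517 at 800K (slope −0.22 ± 0.031), while the recycling factor MRRF read 1.42 (slope 0.13 ± 0.019) and the insertase OXA1L 1.35 (slope 0.098 ± 0.013). TACO1, an activator of translation, fell (slope −0.096), but its slope was 0.038 without the _x_at and _s_at probe sets. Of 18 mitochondrial aminoacyl-tRNA synthetases and related enzymes 4 fell (22.2%, against 12.4% of all genes) and 2 rose (11.1%, against 8.93%). The steepest was MARS2, which fell (0.526 at 800K, slope −0.22 ± 0.033). Ribosomal subunits with other symbols were few: PTCD3 rose to 1.45 (slope 0.13 ± 0.024, with adjusted p up to 0.0682 and the call lost without 50K and without either of the densest dishes), and DAP3, CHCHD1 and GADD45GIP1 read 0.951, 0.849 and 0.931 at 800K and were not called.

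The nuclear-encoded subunits of the respiratory chain and ATP synthase, into whose complexes the products of the mitochondrial ribosome are built, were mostly above their 50K level. Of 77 such genes 35 rose (45.5%, against 8.93% of all genes) and 0 fell (against 12.4%) at a limma adjusted p under 0.05. At an unadjusted p under 0.05, 2 fell. Their median slope was 0.071, and 6 of these genes had a slope below 0. Their median log2 ratio was 0.28 at 800K, where that of the mitochondrial ribosomal proteins was −0.15. COX7B read 2.1 and COX5B 1.82 at 800K. The cytosolic ribosomal proteins lay between by their median log2 ratio, 0.11 at 800K. Of these 53 genes 7 rose (13.2%, against 8.93% of all genes) and 0 fell (against 12.4%, with 1 at an unadjusted limma p under 0.05). These counts stand beside each other as descriptions, and the difference between the lists was not tested.

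**Figure D5:**
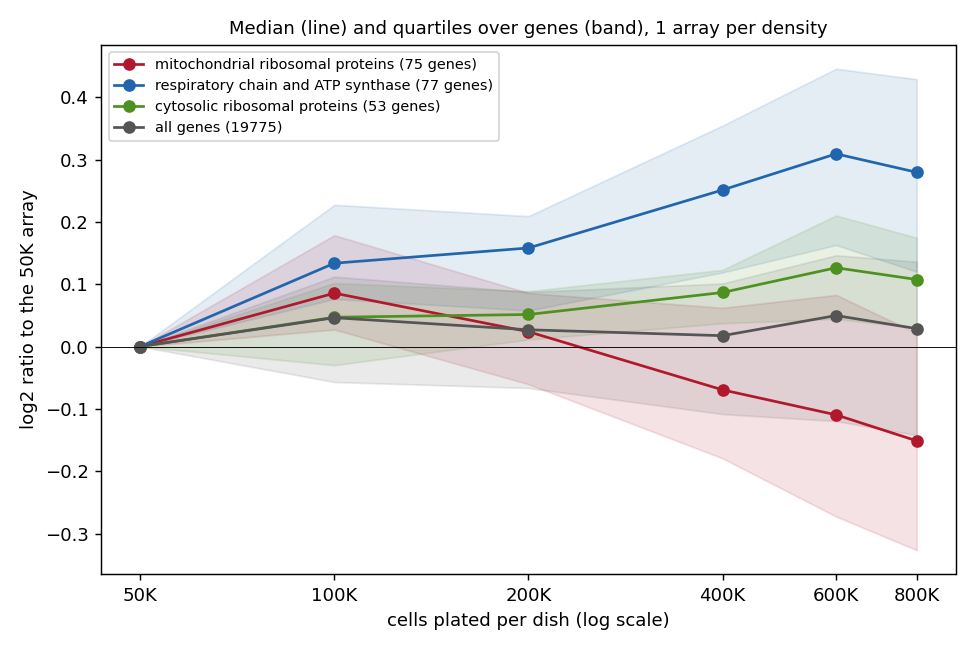
Median log2 ratio to the 50K array (lines) and quartiles over genes (bands) against cells plated (log scale), with 1 array per density, for the mitochondrial ribosomal proteins (red), the respiratory chain and ATP synthase (blue), the cytosolic ribosomal proteins (green) and all genes (grey). The red line goes from 0.086 at 100K to −0.15 at 800K and the blue line from 0.13 to 0.28.

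Signs of RNA quality and of other cells were read from the same arrays. The array's own 3′ and 5′ probe sets for ACTB drew apart with density, the 3′ minus 5′ difference in log2 ratio being −0.024, 0.037, 0.17, 0.22 and 0.30 from 100K to 800K, while for GAPDH it lay between −0.047 and 0.072. Of the epithelial markers 3 of 6 rose (KRT14, CDH1 and KRT5), against 8.93% of all genes. So did 1 of 6 fibroblast markers (DCN), 1 of 4 leukocyte markers (CD14) and 2 of 5 endothelial markers (KDR and PECAM1). At an adjusted p under 0.05, 0 of these 21 fell, against 12.4% of all genes. At an unadjusted limma p under 0.05, 1 epithelial marker fell. CD14 read 5.66 at 800K. The calls of CD14, KRT14, CDH1 and KRT5 held in all 6 fits with an array left out. DCN and KDR each kept their call in 1 of those 6 fits, and PECAM1 in 2. As ratios carry no level, the amounts of the marker transcripts are unknown. The part of these shifts in the falls of the members was not tested.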

How the data were processed

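Total RNA (200 ng) was labelled with biotin, per the labels' protocols, and hybridised to 1 array per density. RMA was used, per the submitters' processing notes, which give no version. The deposited values are linear ratios to the 50K array: all 54675 values of that column equal 1 within 1e-06, and the rest lie between 0.0292 and 98.5. How the ratios were made is not given in these sources. Without intensities the signal over background of a probe set is unknown, and precision is limited by there being 6 arrays.

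Probe sets with 1 symbol in the platform annotation were kept (41097 of 54675, 1801 having several and 11777 not listed), and 62 controls were left out. A gene is the mean log2 ratio of its probe sets, with no filter, since ratios hold no level.

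Slopes on log2 of the cells plated (4 residual degrees of freedom) and curvature (3) were fitted over 19775 genes with limma 3.58.1 in R 4.3.3 (lmFit, eBayes) as two-sided tests, calls being made at a Benjamini-Hochberg adjusted p under 0.05 over every gene. Without replicates, the residuals mix variation between dishes, noise and departure from a line. Errors after ± are standard errors. Fits were tested on simulated data. Named members were all past the threshold, the 4 smallest curvature p, the 3 largest steps each way, those with opposed probe sets, MRPS18A and MRPS30, and up to 4 called genes per related list; others named in the text were chosen after their values were seen. Members and lists were chosen with earlier results of these data known. Motifs, promoter stretches and subunit classes were chosen after the values were seen, and the classes come from general knowledge of the ribosome. Alternatives were the probe sets used, their median, centring, the density scale, 3 against 3 densities, robust variances and leaving out each array.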

Additional observations from a re-analysis of the deposited data

How the results depend on the processing

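The falling count of 18 (24.0%, against 12.4% of all genes) was 6 of 44 members without probe sets whose identifiers end in _x_at or _s_at (13.6%, against 8.81%), and between 4 and 23 with each array left out in turn. It was within 1.5 times of 18 with the median of the probe sets (17; 22.7%, against 11.6%), arrays centred on their medians (22; 29.3%, against 12.4%), the cell number as the scale (23; 30.7%, against 12.8%) or its rank (23; 30.7%, against 13.2%), 3 lowest against 3 highest densities (12; 16.0%, against 6.83%) and robust variances (18). The rising count of 3 (4.0%, against 8.93% of all genes) was 1 with the median of the probe sets (1.33%, against 7.98%). It was also 1 on the scale of the cell number (1.33%, against 9.75%) and 0 for 3 lowest against 3 highest densities (against 4.59%). With each array left out it was between 0 and 2, against 5.19% to 8.23% of all genes. For curvature the count was 0 in limma under every alternative run. The slope changed sign for MRPL20 with the median of probe sets (−0.0020). Among the named genes not called it did so for MRPL19 with the median of probe sets (−0.0044) or centred arrays (−0.0029) and for MRPS30 with centred arrays (−0.00018). With each array left out in turn, slopes took both signs in 14 of the 54 members not called and 0 of the 21 called, among the named ones MRPL19 (−0.014 to 0.018), MRPL11 (−0.069 to 0.033), MRPS23 (−0.0027 to 0.057), MRPS30 (−0.013 to 0.020) and MRPS34 (−0.10 to 0.00022). Without the _x_at and _s_at probe sets it did so for TACO1 (0.038) and the fibroblast marker DCN (−0.0021). The cause was not tested. No paired analysis was possible because each density has a single array.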

Other observations

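Many of the genes have a protein-coding neighbour that starts close by on the other strand and is read in the opposite direction. Such a partner, with at most 1000 bases between the start sites in the RefSeq promoter entries, was found for 20 members, and for 19 of them it was measured. In 10 of these 19 neither gene was called and in 1 both rose, while the other 8 had unlike calls. Of these 8 only 1, MRPL14 with TMEM63B, was a fall beside a rise. In the rest 1 gene of the pair was called and its partner was not. Among all genes 12.4% fell and 8.93% rose. The count is by member, so MRPL46 and MRPS11, which are partners of each other, are both among the 10. The same shares were not counted for neighbours among all genes. MRPL49 fell, while FAU, a cytosolic ribosomal protein gene whose start lies 49 bases away, read 1.01 at 800K (slope 0.0010 ± 0.019, adjusted p = 0.983). MRPL14 fell (slope −0.14), while TMEM63B, a membrane channel gene 240 bases away, rose (slope 0.21 ± 0.030, adjusted p = 0.00735). MRPL57 read 0.949 at 800K and was not called, while SKA3, which helps attach chromosomes to the spindle and starts 106 bases away, fell (slope −0.48 ± 0.098, adjusted p = 0.0194).

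MRPS12 fell (slope −0.15), and SARS2, the mitochondrial seryl-tRNA synthetase that starts 181 bases away, was not called (slope −0.017 ± 0.016). MRPL50 and ZNF189, 233 bases apart, both rose (slopes of 0.058 and 0.098). MRPL46 and MRPS11 are partners of each other, 320 bases apart, and neither was called. In the other pairs with unlike calls, the partners of MRPL27, MRPL51 and MRPS18B fell and that of MRPL30 rose, while these members were not called. Differences within pairs were not tested.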
